A study of Mus musculus with 10 samples.

Results

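The genes described here are a set of 46 mouse genes of the cell cycle and DNA replication, named one by one, measured in splenic dendritic cells (DCs) with and without CpG. For each gene the probe set that carried exactly 1 gene symbol and had the highest mean over the arrays was used, and genes with no such probe set were dropped. This left 44 of the 46 genes, out of 21994 genes on the array with such a probe set: Ccne2 shared its probe set with Ints8, and Ccnb1 had none. All 44 passed the filter on low values, as 13298 genes of the array did. Of the 44, 42 were above the array's median on all 10 arrays, while Chek1 was above it on 9 and Brca1 on 8.

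DCs are the antigen-presenting cells that start T cell responses, and CpG is DNA with unmethylated CpG motifs, a ligand of the receptor TLR9. CD11c+ DCs were taken with magnetic beads from the spleens of wild-type (WT) mice or of C3ar1-/-C5ar1-/- mice, which lack the receptors for the complement fragments C3a and C5a and are called DKO below. Cells were collected 4 h after the mice received 100 µg of CpG or vehicle, which gave 4 groups. There were 2 arrays of unstimulated WT cells, 3 of WT cells after CpG, 2 of unstimulated DKO cells and 3 of DKO cells after CpG. The arrays were of the type Mouse Gene 2.0 ST (Affymetrix), and every level below is a deposited log2 intensity, so that a difference of 1 is a 2-fold change in signal. The labels give neither the age nor the sex of the mice, and do not say whether each array is a separate mouse, so p-values measure the spread between these samples. With so few arrays, precision is limited by their number.

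A cell that divides first loads the MCM helicase onto replication origins with the help of Cdc6 and Cdt1, then copies its DNA in S phase, and then builds a spindle and separates its chromosomes in mitosis. Many genes of the first steps are transcribed under E2F factors, and many mitotic genes carry a CHR element and CCAAT boxes near the transcription start. In the spleen, differentiated DCs arise from dividing precursors, and other dividing cells, among them lymphocytes, can be carried along in a bead selection.

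By their roles 23 of the 44 genes belong to S-phase entry and DNA replication and 21 to mitosis. The promoters of 2 replication genes and of 4 mitotic genes are shown as examples that carry these elements, since the counts below are also given for the 2 kinds apart. They are not typical of all genes of the set. No other replication stretch extracted before a gene's start held an E2F motif. The stretch of Kif23 held no CHR or CCAAT, though its longer window, counted below, held both. The sequences are from RefSeq on GRCm38.p6, run 5′ to 3′ along the gene's strand, and end before the gene's start. Capitals mark E2F motifs (TTTCCCGC, TTTGGCGC, TTTCGCGC or TTTGCCGC) in Mcm5 and Mcm6, and CHR motifs (TTTGAA or TTCGAA) and CCAAT boxes in the other 4, on either strand. CCAAT boxes are left in lower case in Mcm5, which has 1, and in Mcm6, which has 2. Neighbouring motifs can overlap, and their capitals then run together.
Mcm5 (chr8:75109318-75109467, plus strand): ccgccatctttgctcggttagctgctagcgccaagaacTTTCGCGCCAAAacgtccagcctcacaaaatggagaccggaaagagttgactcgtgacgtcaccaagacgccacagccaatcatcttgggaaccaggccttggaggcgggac
Mcm6 (chr1:128359706-128359855, minus strand): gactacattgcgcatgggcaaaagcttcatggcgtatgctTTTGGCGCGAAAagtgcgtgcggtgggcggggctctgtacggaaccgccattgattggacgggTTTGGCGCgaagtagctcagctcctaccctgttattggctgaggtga
Cdc20 (chr4:118437344-118437493, minus strand): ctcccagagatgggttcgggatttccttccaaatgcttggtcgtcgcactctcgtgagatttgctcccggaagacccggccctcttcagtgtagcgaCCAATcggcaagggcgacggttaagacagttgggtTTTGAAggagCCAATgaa
Kif11 (chr19:37376232-37376381, plus strand): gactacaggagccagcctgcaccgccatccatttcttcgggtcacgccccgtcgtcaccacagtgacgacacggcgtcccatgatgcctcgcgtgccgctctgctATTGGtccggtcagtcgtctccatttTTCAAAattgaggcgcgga
Ube2c (chr2:164769779-164769928, plus strand): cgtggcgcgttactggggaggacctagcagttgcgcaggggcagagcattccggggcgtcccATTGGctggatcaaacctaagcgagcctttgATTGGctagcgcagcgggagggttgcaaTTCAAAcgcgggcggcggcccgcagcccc
Mki67 (chr7:135716451-135716600, minus strand): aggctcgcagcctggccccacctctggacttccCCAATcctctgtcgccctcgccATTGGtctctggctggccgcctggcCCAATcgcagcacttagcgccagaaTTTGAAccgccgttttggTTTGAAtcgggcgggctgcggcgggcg

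Promoter windows of 300 bases, from 250 before to 50 after the start, were held for 38 of the 44 genes. A gene was counted once, as having a motif if any of its windows held it. An E2F motif was found for 9 of 21 replication genes (42.9%) and 1 of 17 mitotic genes (5.88%), against 3.25% of 16918 genes of the array. A CHR motif was found for 14 of 17 mitotic genes (82.4%) and 4 of 21 replication genes (19%), against 19.4% over the array. CCAAT, in both orientations, was found for 15 of 17 mitotic genes (88.2%), 13 of 21 replication genes (61.9%) and 41.6% of all these genes. A match is a run of letters and not a measured binding site.

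After CpG part of the set was lower in both genotypes, and no gene of it passed as higher. The mean level of B cell markers was lower on the same arrays. With it as a covariate 0 of the 44 genes passed in limma, as given in full after the array medians. In WT DCs 13 of 44 genes fell and 0 rose at an adjusted p under 0.05 in limma, against 13.4% of the 13298 genes tested that were called lower and 21.6% called in either direction. Of the 44, 40 had a negative difference, and their median was -0.37 against -0.04 over all genes tested. An unadjusted p under 0.05 was reached by 22 of the 44 in WT and 25 in DKO, against 32.7% and 25% of all genes. The arrays after CpG lay below the unstimulated ones for 31 of the 44 in WT and 24 in DKO, against 31.2% and 22.6% of all genes. In DKO DCs 7 of 44 fell and 0 rose in limma, where 5.76% of all genes tested were called lower and 10.3% in either direction; 41 had a negative difference, with a median of -0.42. Averaged over the genotypes, 24 of 44 fell and 0 rose in limma (18.6% of all genes called lower, 29.8% called), with a median of -0.38. Cdc6, Kif23 and Prc1 fell in both genotypes. How many of all genes tested did so was not counted, so this overlap is not set against a background.

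Without WT unstimulated 1 the median over the 44 genes in WT was -0.28, with 1 unstimulated WT array left. In DKO the median was -0.46 without DKO unstimulated 1 and -0.31 without DKO unstimulated 2, each with 1 unstimulated array left. In DKO limma called 2 of the 44 genes without DKO CpG 1, 4 without DKO CpG 2 and 18 without DKO CpG 3. Of all genes tested these fits called 5.5%, 6.99% and 14.3%, against 10.3% with all arrays. Kif23 and Prc1 passed in DKO in each of them. When each array was centred on the median of the tested genes, the median difference of all genes shifted by 0.13 in WT, 0.07 in DKO and 0.10 averaged, and 11, 5 and 18 of the 44 genes fell in limma. Of all genes tested 21.5%, 9.45% and 29.8% were called after centring. Over all genes called, the lower share was 61.9%, 55.8% and 62.6% as deposited and 40.5%, 39.3% and 42.2% after centring. The sign turned for Cenpe and Tyms in WT, Mcm3 and Mcm4 in DKO, and Cdk1, Cdt1, Tpx2 and Tyms averaged, and none of these had passed in the comparison where it turned.

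**Figure D1:**
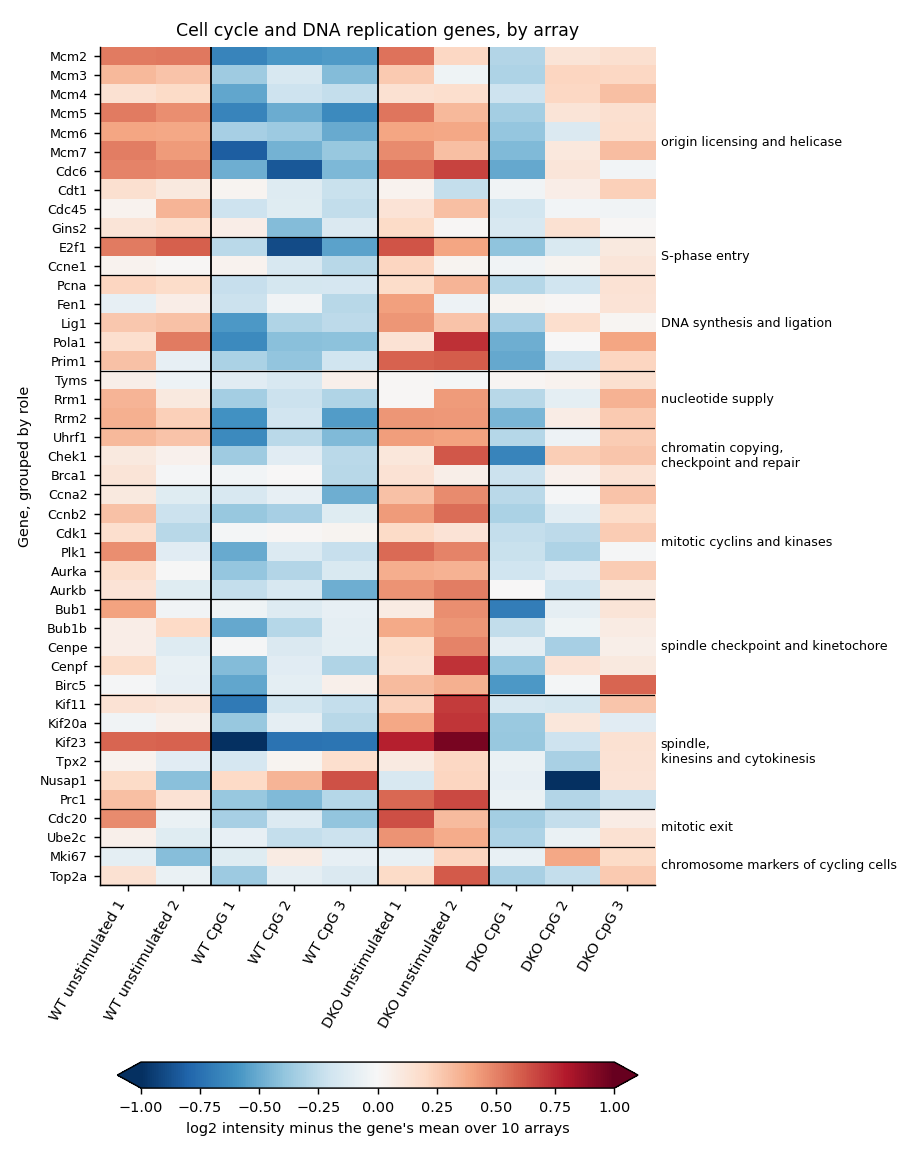
Level of each of the 44 genes on each of the 10 arrays, as log2 intensity minus the gene's mean over the arrays (colour), with genes grouped by role and arrays by group. Arrays after CpG were lower than unstimulated arrays for most genes in WT, and DKO CpG 3 stayed nearer to the unstimulated level than the other DKO arrays after CpG, with a median over the genes of 0.16 against -0.29 and -0.03.

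The whole set can be followed array by array as the median over the 44 genes of the level minus each gene's mean. This median was 0.17 and 0.06 in unstimulated WT cells, -0.34, -0.17 and -0.27 in WT cells after CpG, 0.30 and 0.38 in unstimulated DKO cells, and -0.29, -0.03 and 0.16 in DKO cells after CpG. The WT groups did not overlap, and neither did the DKO groups, but DKO CpG 3 stood above 1 unstimulated WT array. For 11 genes all 6 arrays after CpG were below all 4 unstimulated arrays, where 12.3% of all genes tested did so: Mcm2, Mcm5, Mcm6, Cdc6, Cdc45, E2f1, Pcna, Lig1, Uhrf1, Kif23 and Prc1.

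Markers of B cells moved with the set, while those of some other cells did not. Over 8 plasma cell markers, of which 1 was never above the array's median, the mean log2 level was higher after CpG. It was 7.15 and 6.83 in unstimulated WT cells and 7.40 to 7.41 after CpG. In DKO cells it was 7.13 and 7.25 without CpG and 7.34 to 7.90 after it. The mean log2 level of 9 B cell markers, none of which stayed below the array's median on all arrays, was 7.32 to 7.46 in unstimulated WT cells, 6.67 to 6.83 after CpG, 7.28 to 7.51 in unstimulated DKO cells and 6.53 to 7.09 after CpG, and 4 of the 9 fell in each genotype in limma. With that level as a covariate, an alternative chosen after seeing the data, limma called 0 of the 44 genes in WT, in DKO and averaged, and their medians were 0.01, 0.03 and 0.05. The same fit called 533, 32 and 358 of all genes tested, against 2873, 1372 and 3963 without the covariate. Not every marker fell alike. Averaged over genotypes, Ms4a1, Cd79b, Cd22, Bank1, Blk and Fcmr passed as lower in limma. Pax5, Cd79a and Ebf1 did not pass averaged, at -0.06, -0.20 and -0.25. The mean marker level did not overlap between stimulated and unstimulated arrays of either genotype. This level and the CpG treatment thus cannot be told apart here. In bulk RNA, fewer cells of a type and less RNA per cell cannot be told apart either.

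Levels of DC markers also differed with CpG. Over 8 conventional DC markers the mean log2 level was 10.90 and 10.98 in unstimulated WT cells and 10.63 to 10.82 after CpG, and 11.07 and 11.15 in unstimulated DKO cells and 10.78 to 11.01 after CpG, with no overlap in either genotype. In limma 4 of the 8 fell in WT, among them Itgax, which encodes CD11c, at -0.76 ± 0.15 (adjusted p = 0.00492), and 2 fell in DKO, Zbtb46 and Ciita. Averaged over genotypes Itgax, Flt3, Zbtb46 and Ciita fell in limma, while Batf3 rose, at 0.39 ± 0.11 (adjusted p = 0.0199). Dpp4, H2-Aa and H2-Ab1 did not pass averaged, at 0.11, -0.04 and -0.03. For cDC1, the conventional subset specialised in cross-presentation, the mean level of 9 markers was 9.70 to 9.77 and 8.65 to 8.82 in WT cells without and with CpG, and 9.32 to 9.68 and 8.94 to 9.07 in DKO cells. Its members did not all move one way, since Xcr1 fell, at -2.13 ± 0.13 (adjusted p = 5.33e-06) averaged in limma, while Ly75 rose, at 2.07 ± 0.09 (adjusted p = 2.68e-06). With it as a covariate limma called 0 of the 44 genes in WT, DKO and averaged, and 0, 12 and 0 of all genes tested, while the set's medians were -0.50, -0.48 and -0.48. With the level of 8 markers of cDC2, the other conventional subset, 2, 0 and 0 of the 44 were called, and the medians were -0.09, -0.02 and -0.08. The same fit called 1110, 140 and 671 of all genes tested. Of these markers Cd4, Irf4, Itgam and Ltb fell averaged over genotypes in limma. Sirpa, Clec4a4, Esam and Clec10a did not pass averaged, at -0.06, -0.46, -0.09 and -0.34. Neither subset's level overlapped between stimulated and unstimulated arrays of a genotype, so these levels and the treatment cannot be told apart.

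The arrays also differed in ways that the groups do not explain. On 2 arrays, DKO unstimulated 2 and DKO CpG 3, the mean level was 8.81 and 8.51 over 12 splenic macrophage markers, against 10.1 to 10.6 on the other 8 arrays, and their neutrophil marker levels were the lowest, at 5.51 and 5.37 against 6.02 to 8.75. These 2 arrays also had the highest median of the set in their groups. Without both of them, which leaves 1 unstimulated DKO array, the median over the 44 genes was -0.37 in WT, -0.47 in DKO and -0.40 averaged. Y-linked genes were at 7.33 to 7.93 on DKO unstimulated 1, DKO CpG 1 and DKO CpG 2 and at 3.21 to 3.68 on the other 7 arrays. No WT array had the high level, so the Y-linked level is partly confounded with genotype. With the Y-linked level as a covariate 13 of the 44 genes were called in DKO, and 14.2% of all genes tested. C3ar1 was at 5.95 and 5.80 in unstimulated WT cells, 6.14, 6.31 and 6.59 in WT cells after CpG, 5.64 and 5.27 in unstimulated DKO cells, and 5.61, 5.55 and 5.34 in DKO cells after CpG. C5ar1 was at 5.75 and 6.02 in unstimulated WT cells, 6.64, 7.32 and 5.51 in WT cells after CpG, 4.42 and 4.56 in unstimulated DKO cells, and 4.99, 4.72 and 4.74 in DKO cells after CpG. Both were below every WT array on every DKO array, although neither passed in limma (adjusted p = 0.0607 and 0.0727 after CpG), and where these probe sets lie relative to the deleted parts is not given in the sources used here.

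The titles of the samples run in 2 series of numbers, and the second holds the third WT array after CpG together with DKO unstimulated 2 and DKO CpG 3. In the first series every DKO array had the high Y-linked level and no WT array did. That level and the genotype cannot be told apart there. The labels name a kit used for a first batch without saying which samples it held, so the title series are only a stand-in for a batch. In DKO the median difference over the 44 genes was -0.47 within the first series, with 42 below 0, and -0.21 within the second, with 34 below 0 and 1 array per group and thus no test. With the title series as a block limma called 19 of the 44 genes in WT, 8 in DKO and 29 averaged. Of all genes tested this fit called 24.9%, 13.1% and 33.7%, against 21.6%, 10.3% and 29.8% without the block. With the first series alone, where unstimulated DKO is 1 array, the median over the 44 genes was -0.40 in WT and -0.40 averaged.

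Origin licensing and the helicase made up the group that fell most often in WT, with 6 of 10 genes called lower, a median of -0.71 and every one of the 10 below 0. In DKO 1 of the 10 fell, with a median of -0.34. Mcm2, a subunit of the MCM helicase that unwinds DNA at the fork, was at 8.86 and 8.87 in unstimulated WT cells, 7.68, 7.76 and 7.77 in WT cells after CpG, 8.89 and 8.55 in unstimulated DKO cells, and 8.05, 8.47 and 8.50 in DKO cells after CpG. The WT groups lay far apart, while DKO CpG 2 and 3 lay just below the lower unstimulated DKO array and DKO CpG 1 further below. Mcm2 changed by -1.12 ± 0.16 (adjusted p = 0.000768) in WT and by -0.38 ± 0.16 (adjusted p = 0.163) in DKO in limma.

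Mcm5, another subunit of the same ring, whose promoter with its pair of E2F motifs is printed above, was at 9.27 and 9.22 in unstimulated WT cells, 8.09, 8.26 and 8.12 in WT cells after CpG, 9.29 and 9.07 in unstimulated DKO cells, and 8.42, 8.88 and 8.91 in DKO cells after CpG. Again the arrays after CpG were the lower ones in both genotypes, by a wider gap in WT. The difference was -1.08 ± 0.16 (adjusted p = 0.000992) in WT and -0.45 ± 0.16 (adjusted p = 0.105) in DKO in limma. Mcm6 was at 9.43 and 9.42 in unstimulated WT cells, 8.70, 8.67 and 8.53 in WT cells after CpG, 9.43 and 9.42 in unstimulated DKO cells, and 8.64, 8.89 and 9.20 in DKO cells after CpG. It changed by -0.79 ± 0.15 (adjusted p = 0.00462) in WT and -0.51 ± 0.15 (adjusted p = 0.0591) in DKO in limma. Its groups did not overlap in either genotype.

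Mcm7 was at 7.84 and 7.75 in unstimulated WT cells, 6.50, 6.85 and 6.95 in WT cells after CpG, 7.80 and 7.63 in unstimulated DKO cells, and 6.88, 7.44 and 7.64 in DKO cells after CpG. DKO CpG 3 reached the level of DKO unstimulated 2, so the DKO groups overlapped. The difference was -1.03 ± 0.21 (adjusted p = 0.00610) in WT and -0.40 ± 0.21 (adjusted p = 0.278) in DKO in limma. Mcm3 was at 8.86 and 8.82 in unstimulated WT cells, 8.19, 8.38 and 8.11 in WT cells after CpG, 8.80 and 8.49 in unstimulated DKO cells, and 8.23, 8.75 and 8.75 in DKO cells after CpG, with separate groups in WT and overlapping ones in DKO. It changed by -0.62 ± 0.18 (adjusted p = 0.0288) in WT and -0.07 ± 0.18 (adjusted p = 0.858) in DKO in limma, and did not pass averaged over genotypes, at -0.35 ± 0.12 (adjusted p = 0.0588). Mcm4 did not pass in WT, at -0.50 ± 0.16 (adjusted p = 0.0508) in limma, nor in DKO, at -0.06 ± 0.16 (adjusted p = 0.874). In DKO the small negative differences of Mcm3 and Mcm4 turned positive when each array was centred on the median of the tested genes.

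Cdc6, the loader that places the MCM ring on origins, was at 6.98 and 6.96 in unstimulated WT cells, 5.99, 5.63 and 6.03 in WT cells after CpG, 7.03 and 7.16 in unstimulated DKO cells, and 5.97, 6.60 and 6.46 in DKO cells after CpG. All arrays after CpG were lower than all unstimulated ones, DKO CpG 2 and 3 by the smallest gap. It fell in both genotypes in limma, at -1.08 ± 0.19 (adjusted p = 0.00267) in WT and -0.75 ± 0.19 (adjusted p = 0.0310) in DKO. Cdc45, which joins the helicase when origins fire, was at 7.19 and 7.49 in unstimulated WT cells, 6.94, 7.03 and 6.91 in WT cells after CpG, 7.28 and 7.45 in unstimulated DKO cells, and 6.97, 7.12 and 7.11 in DKO cells after CpG. All arrays after CpG were below all unstimulated arrays, by a small margin. Cdc45 passed averaged over genotypes in limma at -0.34 ± 0.09 (adjusted p = 0.0157) but in neither alone. Cdt1, the partner of Cdc6, and Gins2, a subunit of the active helicase, passed nowhere in limma, with -0.24 and -0.32 in WT and 0.19 and -0.10 in DKO.

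E2f1, a transcription factor that drives entry into S phase, was at 7.34 and 7.42 in unstimulated WT cells, 6.54, 5.92 and 6.28 in WT cells after CpG, 7.45 and 7.21 in unstimulated DKO cells, and 6.41, 6.67 and 6.92 in DKO cells after CpG. The 3 WT arrays after CpG were spread widely but lay below both unstimulated arrays, and the DKO groups were also apart. In limma the difference was -1.13 ± 0.19 (adjusted p = 0.00256) in WT and -0.66 ± 0.19 (adjusted p = 0.0557) in DKO, the second just short of the threshold. Ccne1, cyclin E1, which activates Cdk2 at the same step, was at 6.92 and 6.90 in unstimulated WT cells, 6.93, 6.73 and 6.61 in WT cells after CpG, 7.10 and 6.91 in unstimulated DKO cells, and 6.85, 6.91 and 7.01 in DKO cells after CpG. Its groups overlapped in both genotypes. It differed by -0.16 ± 0.13 (adjusted p = 0.436) in WT and -0.08 ± 0.13 (adjusted p = 0.759) in DKO in limma.

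**Figure D2:**
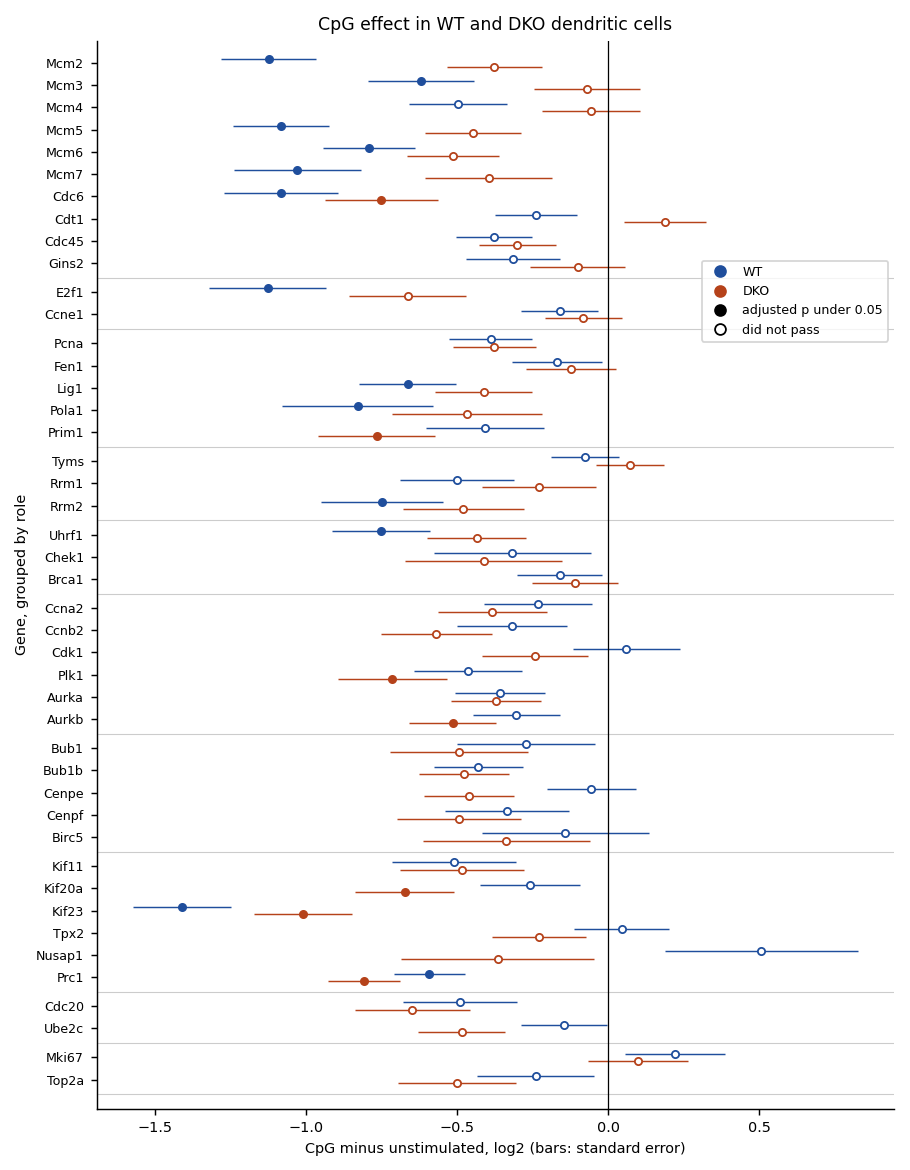
CpG minus unstimulated difference of each gene (log2, points, with the standard error as bars) in WT and DKO cells, with genes grouped by role and filled points for an adjusted p under 0.05 in limma. Filled WT points lie mostly among the replication genes, 11 of 13, and filled DKO points mostly among the mitotic genes, 5 of 7. This split was not tested, and no gene passed in the test of the difference between genotypes.

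Among the enzymes of DNA synthesis and ligation, 2 of 5 genes fell in WT and 1 of 5 in DKO. Pcna, the sliding clamp of the polymerases, was at 11.50 and 11.47 in unstimulated WT cells, 11.06, 11.11 and 11.12 in WT cells after CpG, 11.47 and 11.63 in unstimulated DKO cells, and 11.001, 11.09 and 11.43 in DKO cells after CpG. Its arrays after CpG were lower in both genotypes by a narrow margin, and it passed averaged over genotypes at -0.38 ± 0.10 (adjusted p = 0.0129) in limma but not in WT, at -0.39 ± 0.14 (adjusted p = 0.0705), or in DKO, at -0.38 ± 0.14 (adjusted p = 0.113). Lig1, which seals the nicks of the lagging strand, was at 8.65 and 8.68 in unstimulated WT cells, 7.80, 8.08 and 8.12 in WT cells after CpG, 8.82 and 8.67 in unstimulated DKO cells, and 8.05, 8.55 and 8.40 in DKO cells after CpG. It changed by -0.66 ± 0.16 (adjusted p = 0.0143) in WT and -0.41 ± 0.16 (adjusted p = 0.136) in DKO in limma, and its groups overlapped in neither.

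Pola1, the catalytic subunit of the primase-bound polymerase, was at 7.57 and 7.92 in unstimulated WT cells, 6.76, 6.99 and 7.00 in WT cells after CpG, 7.55 and 8.13 in unstimulated DKO cells, and 6.91, 7.41 and 7.80 in DKO cells after CpG. The WT groups were apart and the DKO groups overlapped, since DKO CpG 3 lay above DKO unstimulated 1. It changed by -0.83 ± 0.25 (adjusted p = 0.0374) in WT and -0.47 ± 0.25 (adjusted p = 0.282) in DKO in limma. Prim1, which lays down the RNA primer, was at 7.00 and 6.63 in unstimulated WT cells, 6.40, 6.32 and 6.51 in WT cells after CpG, 7.30 and 7.32 in unstimulated DKO cells, and 6.20, 6.51 and 6.93 in DKO cells after CpG. The groups were apart in both genotypes, with a wider gap in DKO. It fell in DKO, at -0.77 ± 0.19 (adjusted p = 0.0327), and did not pass in WT, at -0.41 ± 0.19 (adjusted p = 0.177), in limma. Fen1, the flap nuclease, differed by -0.17 in WT and -0.12 in DKO and passed in neither.

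Of the nucleotide supply genes, Rrm2, the regulated subunit of ribonucleotide reductase, was at 6.75 and 6.63 in unstimulated WT cells, 5.79, 6.20 and 5.84 in WT cells after CpG, 6.83 and 6.83 in unstimulated DKO cells, and 5.93, 6.47 and 6.65 in DKO cells after CpG. Arrays after CpG were the lower ones in both genotypes. It fell in WT, at -0.75 ± 0.20 (adjusted p = 0.0230), and did not pass in DKO, at -0.48 ± 0.20 (adjusted p = 0.167), in limma. Rrm1, the other subunit, differed by -0.50 in WT and -0.23 in DKO and passed in neither genotype. It did not pass averaged over genotypes either, at -0.36 ± 0.13 (adjusted p = 0.0638) in limma. Tyms, thymidylate synthase, differed by -0.08 ± 0.11 (adjusted p = 0.700) in WT and 0.07 ± 0.11 (adjusted p = 0.766) in DKO in limma.

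Uhrf1, which guides maintenance DNA methylation onto new strands, was at 8.45 and 8.41 in unstimulated WT cells, 7.50, 7.86 and 7.69 in WT cells after CpG, 8.55 and 8.53 in unstimulated DKO cells, and 7.84, 8.08 and 8.38 in DKO cells after CpG. Its groups were apart in both genotypes, and it changed by -0.75 ± 0.16 (adjusted p = 0.00828) in WT and -0.44 ± 0.16 (adjusted p = 0.124) in DKO in limma. The checkpoint kinase Chek1 and the repair gene Brca1 passed in neither genotype, with -0.32 and -0.16 in WT and -0.41 and -0.11 in DKO.

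**Figure D3:**
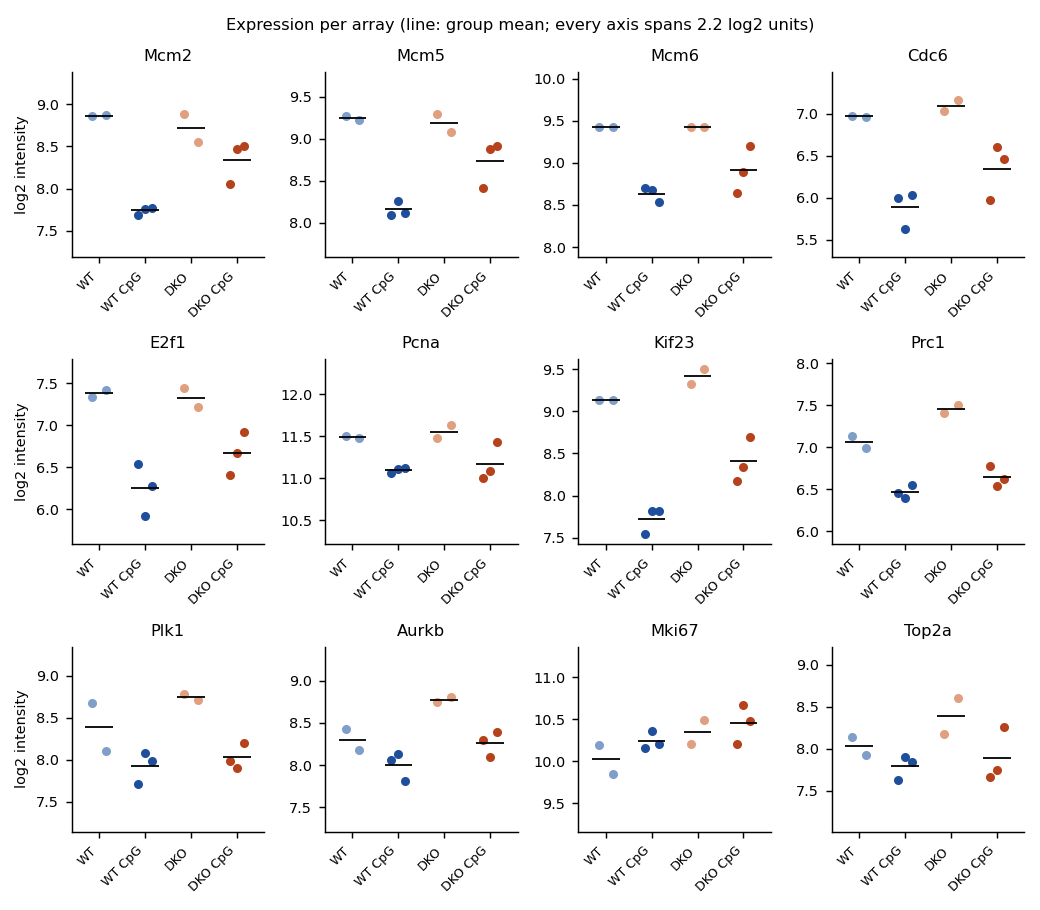
Log2 intensity of single genes on each array (points) with the group mean (line) in the 4 groups. For Kif23 and Mcm2 the arrays after CpG lie below the unstimulated arrays of the same genotype, while for Mki67 the groups overlap.

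Of the mitotic genes 2 of 21 passed in WT and 5 of 21 in DKO, and of the replication genes 11 of 23 passed in WT and 2 of 23 in DKO. With 13.4% of all genes lower in WT and 5.76% in DKO, the mitotic count in WT was below the share of all genes and the replication count in DKO was close to it. The medians of the mitotic and replication genes were -0.27 and -0.50 in WT and -0.49 and -0.38 in DKO. This contrast rests on counts and was not tested, and no gene of the set passed in the test of the difference between genotypes.

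Plk1, the kinase that drives several steps of mitosis, was at 8.68 and 8.10 in unstimulated WT cells, 7.71, 8.08 and 7.98 in WT cells after CpG, 8.78 and 8.71 in unstimulated DKO cells, and 7.99, 7.90 and 8.20 in DKO cells after CpG. WT unstimulated 2 lay close to the WT arrays after CpG, and the DKO groups were apart. It fell in DKO, at -0.72 ± 0.18 (adjusted p = 0.0319), and did not pass in WT, at -0.46 ± 0.18 (adjusted p = 0.0968), in limma. Aurkb, the kinase of the chromosomal passenger complex, was at 8.43 and 8.17 in unstimulated WT cells, 8.06, 8.13 and 7.81 in WT cells after CpG, 8.74 and 8.81 in unstimulated DKO cells, and 8.30, 8.09 and 8.39 in DKO cells after CpG. Its groups were barely apart in WT and clearly apart in DKO. Aurkb changed by -0.51 ± 0.14 (adjusted p = 0.0471) in DKO and -0.30 ± 0.14 (adjusted p = 0.172) in WT in limma.

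Ccna2, cyclin A2, which acts in S phase and early mitosis, was at 8.01 and 7.79 in unstimulated WT cells, 7.75, 7.83 and 7.42 in WT cells after CpG, 8.20 and 8.38 in unstimulated DKO cells, and 7.64, 7.89 and 8.19 in DKO cells after CpG. Its groups overlapped in WT. It passed in neither genotype, at -0.23 ± 0.18 (adjusted p = 0.421) in WT and -0.38 ± 0.18 (adjusted p = 0.215) in DKO in limma. Cdk1, the kinase that mitotic cyclins activate, was at 8.28 and 7.83 in unstimulated WT cells, 8.09, 8.12 and 8.14 in WT cells after CpG, 8.30 and 8.24 in unstimulated DKO cells, and 7.88, 7.85 and 8.37 in DKO cells after CpG. Its groups overlapped in both genotypes, and it differed by 0.06 ± 0.18 (adjusted p = 0.861) in WT and -0.24 ± 0.18 (adjusted p = 0.454) in DKO in limma. Ccnb2, cyclin B2, was at 8.95 and 8.44 in unstimulated WT cells, 8.27, 8.32 and 8.53 in WT cells after CpG, 9.08 and 9.21 in unstimulated DKO cells, and 8.34, 8.55 and 8.84 in DKO cells after CpG. The WT groups overlapped and the DKO groups did not. Ccnb2 fell averaged over genotypes, at -0.44 ± 0.13 (adjusted p = 0.0247) in limma, though in neither alone. Aurka, the spindle pole kinase, was at 7.09 and 6.90 in unstimulated WT cells, 6.53, 6.62 and 6.76 in WT cells after CpG, 7.27 and 7.26 in unstimulated DKO cells, and 6.71, 6.80 and 7.17 in DKO cells after CpG. Within each genotype the arrays after CpG were lower. Aurka fell averaged over genotypes, at -0.37 ± 0.11 (adjusted p = 0.0241) in limma.

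None of the 5 spindle checkpoint and kinetochore genes passed in a single genotype in limma, where 1 in WT and 3 in DKO had an unadjusted p under 0.05. With the title series as a block Bub1b passed in both genotypes. It also passed in WT without WT CpG 3, and with Cenpe in DKO without DKO CpG 3. Bub1b, a checkpoint protein that restrains anaphase, was at 7.01 and 7.15 in unstimulated WT cells, 6.43, 6.66 and 6.86 in WT cells after CpG, 7.33 and 7.39 in unstimulated DKO cells, and 6.70, 6.91 and 7.03 in DKO cells after CpG. Arrays after CpG were below the unstimulated ones in each genotype. Bub1b fell averaged over genotypes, at -0.45 ± 0.10 (adjusted p = 0.00798) in limma. The others were Bub1, Cenpe, Cenpf and Birc5, with differences of -0.27, -0.06, -0.34 and -0.14 in WT and -0.49, -0.46, -0.49 and -0.34 in DKO.

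Kif23, a kinesin of the central spindle needed for cytokinesis, had the largest fall of the 44 genes in each genotype. It was at 9.13 and 9.14 in unstimulated WT cells, 7.54, 7.81 and 7.82 in WT cells after CpG, 9.33 and 9.50 in unstimulated DKO cells, and 8.17, 8.34 and 8.70 in DKO cells after CpG. Every array after CpG lay below every unstimulated array, with DKO CpG 3 the nearest. It fell in both, at -1.41 ± 0.16 (adjusted p = 0.000276) in WT and -1.01 ± 0.16 (adjusted p = 0.00458) in DKO in limma. Prc1, which bundles the microtubules of the same structure, was at 7.13 and 6.98 in unstimulated WT cells, 6.45, 6.39 and 6.55 in WT cells after CpG, 7.41 and 7.50 in unstimulated DKO cells, and 6.77, 6.54 and 6.62 in DKO cells after CpG. Its stimulated and unstimulated arrays did not overlap in either genotype, and it fell in both, at -0.59 ± 0.12 (adjusted p = 0.00556) in WT and -0.81 ± 0.12 (adjusted p = 0.00282) in DKO in limma.

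Kif20a, a kinesin of cytokinesis, was at 6.75 and 6.83 in unstimulated WT cells, 6.40, 6.69 and 6.51 in WT cells after CpG, 7.17 and 7.50 in unstimulated DKO cells, and 6.41, 6.90 and 6.67 in DKO cells after CpG. The WT groups were separated by a small gap and the DKO groups by a larger one. It fell in DKO, at -0.67 ± 0.16 (adjusted p = 0.0279), and did not pass in WT, at -0.26 ± 0.16 (adjusted p = 0.318), in limma. Kif11, the motor that separates the spindle poles, was at 7.97 and 7.94 in unstimulated WT cells, 7.11, 7.64 and 7.58 in WT cells after CpG, 8.06 and 8.52 in unstimulated DKO cells, and 7.67, 7.65 and 8.10 in DKO cells after CpG. WT groups were apart, while DKO CpG 3 lay just above DKO unstimulated 1. Kif11 fell averaged over genotypes, at -0.50 ± 0.14 (adjusted p = 0.0247) in limma, with -0.51 in WT and -0.49 in DKO. Tpx2 and Nusap1, which bind spindle microtubules, passed nowhere and had positive differences in WT, 0.04 and 0.51, and negative ones in DKO, -0.23 and -0.37. Nusap1 was at 7.46 on DKO CpG 2, well below the other DKO arrays after CpG.

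Cdc20, the activator of the anaphase-promoting complex, was at 8.04 and 7.50 in unstimulated WT cells, 7.23, 7.43 and 7.17 in WT cells after CpG, 8.21 and 7.88 in unstimulated DKO cells, and 7.23, 7.33 and 7.64 in DKO cells after CpG. Ube2c, the ubiquitin-conjugating enzyme of that complex, was at 7.44 and 7.27 in unstimulated WT cells, 7.30, 7.15 and 7.17 in WT cells after CpG, 7.83 and 7.76 in unstimulated DKO cells, and 7.07, 7.32 and 7.54 in DKO cells after CpG. Both have CHR and CCAAT letters in the promoters printed above. They fell averaged over genotypes, Cdc20 at -0.57 ± 0.13 (adjusted p = 0.00869) and Ube2c at -0.32 ± 0.10 (adjusted p = 0.0379) in limma, and in neither genotype alone. For both the DKO groups were apart, and in WT those of Ube2c overlapped.

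Mki67, whose protein Ki-67 is the standard marker of cycling cells, did not pass in either genotype. It was at 10.19 and 9.85 in unstimulated WT cells, 10.16, 10.36 and 10.20 in WT cells after CpG, 10.21 and 10.49 in unstimulated DKO cells, and 10.21, 10.67 and 10.47 in DKO cells after CpG. Stimulated and unstimulated arrays overlapped in both genotypes, and the differences were 0.22 ± 0.17 (adjusted p = 0.408) in WT and 0.10 ± 0.17 (adjusted p = 0.782) in DKO in limma. Top2a, the topoisomerase that untangles chromosomes, was at 8.14 and 7.92 in unstimulated WT cells, 7.63, 7.90 and 7.85 in WT cells after CpG, 8.18 and 8.60 in unstimulated DKO cells, and 7.66, 7.75 and 8.25 in DKO cells after CpG. It did not pass in WT, at -0.24 ± 0.19 (adjusted p = 0.447), or in DKO, at -0.50 ± 0.19 (adjusted p = 0.136), in limma.

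Whether the receptors bear on the level of these genes was addressed by comparing DKO with WT cells. Without stimulation 0 of 44 genes passed in limma, where 0.00752% of all genes did, and 7 of the 44 had an unadjusted p under 0.05, against 4.63% of all genes. Of the 44, 34 were higher in DKO, with a median of 0.16, and in 21 the DKO arrays lay above the WT arrays, as in 18.3% of all genes tested. All 21 mitotic genes had a higher mean in DKO, with a median of 0.36, as did 13 of the 23 replication genes, with a median of 0.03. Neutrophil marker levels differed between the genotypes on these arrays, at 7.05 and 7.71 in WT and 6.02 and 5.51 in DKO. With the neutrophil level as a covariate the median over the 44 genes was -0.0086, with 22 above and 22 below 0. It was 0.063 with the splenic macrophage level, 0.051 with the cDC2 level, 0.32 with the Y-linked level, 0.11 when the fit was blocked by title series and 0.10 without WT unstimulated 2. The smallest p-values were those of Prc1, at 0.39 ± 0.13 (adjusted p = 0.992), Aurkb, at 0.47 ± 0.16 (adjusted p = 0.992), and Kif20a, at 0.54 ± 0.18 (adjusted p = 0.992), none of which passed in limma.

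After CpG 0 of 44 genes passed in limma, where 0.12% of all genes did, 0.0526% higher and 0.0677% lower. An unadjusted p under 0.05 was reached by 12 of the 44 and by 14.3% of all genes. Of the 44, 39 were higher in DKO, with a median of 0.21, and in 6 the groups did not overlap, as in 11.6% of all genes. Here all 23 replication genes had a higher mean in DKO, with a median of 0.28, as did 16 of the 21 mitotic genes, with a median of 0.18. The median over the 44 genes was 0.093 with the neutrophil level as a covariate, with 28 above 0, and 0.34 with the Y-linked level. It was 0.13 without DKO CpG 3 and 0.32 without DKO CpG 1. Kif23, at 0.68 ± 0.15 (adjusted p = 0.0800), Mcm2, at 0.60 ± 0.14 (adjusted p = 0.0925), and Mcm5, at 0.58 ± 0.14 (adjusted p = 0.102), had the smallest p-values and did not pass in limma. Without DKO CpG 1 limma called 4 genes higher, Mcm2, Mcm5, Mcm7 and Kif23. Of all genes tested this fit called 2.02%, against 0.12% with all arrays. The comparisons with and without CpG share no arrays, but each shares its arrays with the CpG comparisons.

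**Figure D4:**
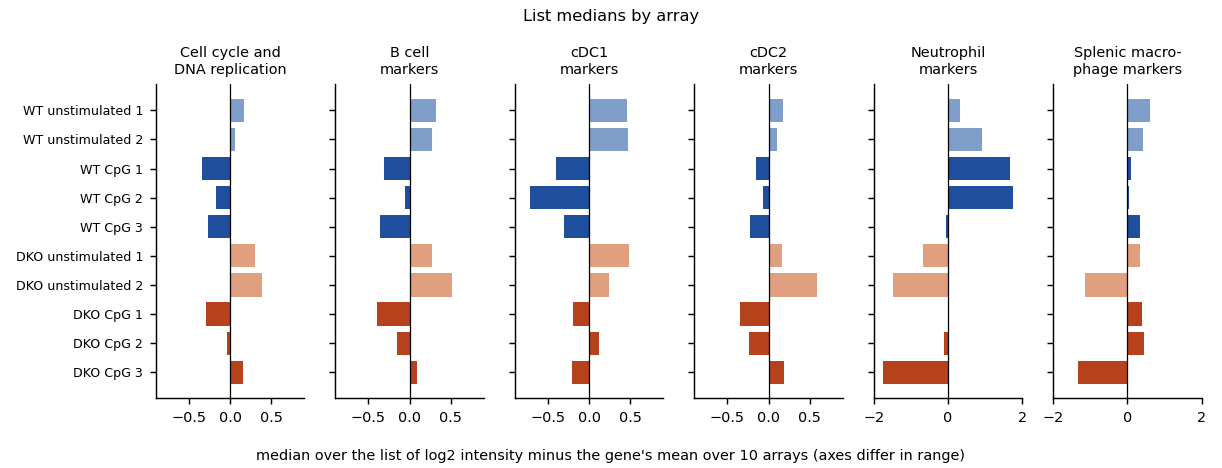
Median level of gene lists on each array, as log2 intensity minus each gene's mean over the 10 arrays, for the cell cycle genes and for markers of other cells. The medians of the cell cycle genes, the B cell markers and the cDC2 markers are high and low on much the same arrays, from -0.34 to 0.38, from -0.40 to 0.51 and from -0.35 to 0.58.

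The difference between genotypes in the CpG effect was tested directly, and 0 of 44 genes passed in limma, where 0.00752% of all genes did; 4 had an unadjusted p under 0.05, against 5.65% of all genes. The CpG effect on Mcm2 differed by 0.75 ± 0.22 (adjusted p = 0.760) between DKO and WT, that on Mcm5 by 0.64 ± 0.22 (adjusted p = 0.795) and that on Cdt1 by 0.43 ± 0.19 (adjusted p = 0.871), a positive value meaning a smaller fall or a rise in DKO. A gene called in 1 genotype and not in the other is thus not shown to differ between them.

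Of 215 other cell cycle genes in 9 lists, 212 were tested; 46 fell and 12 rose in WT in limma, and 25 fell and 11 rose in DKO. Over all genes tested the shares were 13.4% lower and 8.24% higher in WT and 5.76% lower and 4.56% higher in DKO, so the share of these genes that rose was below that of all genes in WT and near it in DKO. The counts of the single lists below are to be read against the same shares. Among other origin and fork genes 4 of 20 fell in WT, with Gins1 of the active helicase at -1.06 ± 0.18 (adjusted p = 0.00267), Topbp1 at -0.71 ± 0.13 (adjusted p = 0.00411), Dbf4 at -0.70 ± 0.15 (adjusted p = 0.00754) and Gmnn, which inhibits Cdt1, at -0.86 ± 0.19 (adjusted p = 0.00903). In DKO 3 of the 20 fell in limma and 1, Wdhd1, rose, at 0.73 ± 0.19 (adjusted p = 0.0382). Of the other polymerase, clamp loader and nucleotide genes 10 of 26 fell and 1 rose in WT and 5 fell and 1 rose in DKO in limma. The nuclease Dna2 changed by -1.58 ± 0.19 and -1.08 ± 0.19, the clamp loader subunit Rfc1 by -0.89 ± 0.12 and -0.68 ± 0.12, and the polymerase subunit Pole2 by -1.05 ± 0.20 and -0.78 ± 0.20 in WT and DKO. The gene that rose in both was Rnaseh2b, at 0.78 ± 0.15 and 0.64 ± 0.15.

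In the E2F, RB and G1 list the shares that fell were near those of all genes, while some regulators rose. In WT 4 of its 26 genes rose and 4 fell in limma, and 3 rose and 2 fell in DKO. Ccnd2, cyclin D2, rose by 2.19 ± 0.25 in WT and 1.98 ± 0.25 in DKO, and its partner kinase Cdk6 by 1.04 ± 0.19 and 1.19 ± 0.19. Rbl2, a pocket protein of the RB family, fell in WT at -1.23 ± 0.14 (adjusted p = 0.000274) in limma. Of 18 CDK inhibitors and p53 targets, 5 rose and 4 fell in WT and 4 rose and 2 fell in DKO in limma. Cdkn1a, the CDK inhibitor p21, rose by 1.36 ± 0.20 in WT and 0.87 ± 0.20 in DKO, and Gadd45b by 1.21 ± 0.14 and 1.18 ± 0.14.

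Counts in the remaining lists were as follows. In WT 9 of 20 other checkpoint and repair genes fell and 0 rose in limma, among them the kinase Atm at -1.61 ± 0.21 and the mismatch repair gene Msh6 at -0.86 ± 0.15. In DKO 2 of the 20 fell, Atm at -1.03 ± 0.21 and Msh6 at -0.57 ± 0.15, and 1, Atrip, rose, at 0.52 ± 0.13 (adjusted p = 0.0291) in limma. Of 11 genes of chromatin assembly and DNA methylation 3 fell in WT and 1 in DKO in limma, with Dnmt1, the maintenance methyltransferase that Uhrf1 recruits, at -1.08 ± 0.17 (adjusted p = 0.00157). Of 55 other kinetochore and spindle genes 5 fell and 1 rose in WT, and 9 fell and 1 rose in DKO, with Hmmr at -0.77 ± 0.16 (adjusted p = 0.0143) and Pbk at -0.69 ± 0.15 (adjusted p = 0.0160) in DKO in limma. The share of this list that fell in WT was below that of all genes. Condensin and cohesin genes fell in 3 of 17 cases in WT and 1 of 17 in DKO, and genes of the APC/C and SCF ubiquitin ligases in 4 of 19 and 0 of 19, with 1 rise in WT.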

How the data were processed

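Splenic CD11c+ DCs were measured on 10 arrays in 4 groups of 2 or 3. The deposited values are log2 intensities. The submitters' processing notes name RMA and Affymetrix Expression Console. Their versions, the annotation and joint normalisation of the arrays were not given in the sources used here. Array medians over 41345 probe sets were 5.50 to 5.56. Of these, 23521 carried 1 symbol in the platform annotation, 1814 several and 16010 none, and 23328 matched the RefSeq gene table (GRCm38.p6).

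Genes above the array's median on at least 2 of 10 arrays (13298) were tested with limma 3.58.1 in R 4.3.3 (lmFit and eBayes, 6 residual and 4.49 prior degrees of freedom). The fit had 4 group means and 6 contrasts, two-sided, with Benjamini-Hochberg adjustment over all genes tested and calls at an adjusted p under 0.05; it was tested on simulated data. Errors marked ± are standard errors.

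The genes and the lists were chosen with earlier results of these data known. Per-array values are given for genes called in any contrast and for Mki67, Top2a, Pcna, Ccna2, Cdk1 and Ccne1; where none passed, the 3 with the smallest p are named. Of the other lists, up to 4 called genes with the smallest p were open to naming. Alternatives covered normalisation, filters, single arrays, the title series and levels of other cells' markers.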

Additional observations from a re-analysis of the deposited data

How the results depend on the processing

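No paired analysis was possible because the labels carry no replicate numbers that the groups share. Leaving out 1 array at a time, limma called 6 to 16 of the 44 genes in WT (6 without WT unstimulated 1), 2 to 18 in DKO, 17 to 32 averaged, 0 unstimulated between genotypes, 0 to 4 after CpG and 0 for the difference in CpG effect. A group left with 1 array is assumed to vary like the others. Among the fits that left out 1 array, the count in DKO was 2 without CpG 1, 4 without CpG 2 and 18 without CpG 3. The share of all genes called there was 5.5%, 6.99% and 14.3%, so it changed as well among the fits that left out 1 array. Kept in each of these fits were Mcm2, Mcm5, Mcm6, Cdc6, E2f1 and Kif23 in WT, Kif23 and Prc1 in DKO, and 16 genes averaged. Using only the arrays of the groups compared, 2 of the 44 genes were called in DKO, and 3.1% of all genes. With the Y-linked level 13 were called in DKO, and 14.2% of all genes. After CpG, DKO against WT gave 1 call with the title series as a block (Kif23) and 4 with the Y-linked level (Kif23, Pola1, Rrm1 and Kif11). Of all genes tested these 2 fits called 2.21% and 5.97%.

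Further covariates were chosen after seeing the data. The splenic macrophage level gave 13 calls in DKO and 1 between genotypes after CpG, where 14.1% and 1.14% of all genes were called. The B cell level gave 0 calls in WT, DKO and averaged, the cDC1 level 0, 0 and 0, and the cDC2 level 2, 0 and 0. Their causes were not tested. Signs also turned. Cdk1 averaged became 0.012 with centred arrays and 0.018 with the neutrophil level, and ranged from -0.20 to 0.021 as single arrays were left out, above 0 without WT unstimulated 1. With the B cell level Pola1 in WT became 0.088, and averaged over genotypes Pola1 became 0.24, Rrm2 0.10, Prim1 0.076, Aurka 0.045, Ccnb2 0.093, Kif11 0.11, Pcna 0.055, Ube2c 0.070, Top2a 0.37, Ccna2 0.36 and Cdk1 0.42. With the cDC2 level, averaged, Pola1 became 0.052, Pcna 0.027, Ube2c 0.014, Top2a 0.24, Ccna2 0.22, Cdk1 0.40 and Ccne1 0.025. With the cDC1 level Mcm3 in WT became 0.012, and averaged Mki67 became -0.23 and Ccne1 0.13. Over 49 single-gene results, 1026 values kept direction and side of the threshold. With the direction kept, 233 lost the call and 10 gained one. Another 25 turned sign, and for these the side of the threshold was not counted. Among the 16 genes called between genotypes after CpG the lower share was 56.2%, against 71.4% with centring and 68.8% with quantile normalisation.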
